A study of Mus musculus with 12 samples.

Results

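Duodenal RNA of Akp3 knockout mice given the pentapeptide IIAEK was compared with that of knockout mice given vehicle, on 3 one-colour Agilent arrays a group, the 6 of the 12 arrays in the series whose labels name the IAP knockout. The labels describe male mice, 7 weeks old at the start, of the genotype IAP-KO (Akp3-/-). The treated group received IIAEK orally in the vehicle, at a daily dose of 600 mg/kg, and the control group received the vehicle alone, carboxymethylcellulose sodium salt at 5 g/L. Titles and design give 14 days of dosing for each group. The source labels of the 3 treated knockout arrays instead give 14, 15 and 16 weeks, and 14 days is used here. Every mouse was fasted for 8 h before the duodenum was placed in RNAlater. The remaining 6 arrays hold wild-type mice under the same vehicle or IIAEK regimen, and entered the fit only to share an estimate of the spread and to test whether the effect differed between genotypes. How the knockout was made and its strain background are not given in the sources used here. The labels count 3 samples a group and say nothing on litters or cages, so p-values measure the spread between these samples.

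IIAEK, named by the letters of its residues (isoleucine, isoleucine, alanine, glutamate and lysine), is a peptide of milk beta-lactoglobulin that the labels call cholesterol-lowering. Intestinal alkaline phosphatase is a brush border enzyme of the small intestine that removes phosphate from nucleotides, lipids and bacterial lipopolysaccharide, and Akp3 encodes its form of the duodenum in mice. The duodenum receives gastric and pancreatic secretions, starts the absorption of fat, sterols, peptides, sugars, iron and calcium, and carries mucous Brunner's glands next to the stomach. The comparison within the knockout asks what the peptide does in a duodenum without the Akp3 form of intestinal alkaline phosphatase.

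Levels are log2 intensities minus the array's 75th percentile, so 0 is that percentile, and they rank arrays for the same probe only. A difference is the mean of the IIAEK arrays minus that of the vehicle arrays, in log2 units, with the standard error (SE) of the limma fit. The share of probes well above background ran from 56.7% to 61.8% over the 6 arrays, and the 75th percentile of intensity lay between 217 and 365. Akp3 itself read -4.01, -3.80 and -4.23 under vehicle and -4.64, -4.42 and -4.90 under IIAEK, against 1.05 to 2.72 on the 6 wild-type arrays, so all 6 arrays fit their genotype label, although whether this probe falls inside the deletion is unknown here. Enterocyte genes were bright on each knockout array, with Fabp2, the intestinal fatty acid binding protein, at 8.89 to 10.04.

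The arrays also differed in ways that the treatment labels do not give. The 6 knockout arrays lie on 2 slides, with vehicle 1, IIAEK 1 and IIAEK 2 on slide 1 and vehicle 2, vehicle 3 and IIAEK 3 on slide 2. Replicates correlated across probes at 0.972, 0.982 and 0.989 under vehicle and at 0.990, 0.953 and 0.966 under IIAEK, the 2 lower values both involving IIAEK 3. That array was the highest of the 6 for the mean of 20 smooth muscle genes, at 2.68 against 1.19 to 1.83, and the lowest for the mean of 17 brush border enzymes, at 3.07 against 3.51 to 3.89. Mucous genes of the gastric surface and Brunner's glands (10 measured) averaged 3.35 on vehicle 1 and 4.37 on IIAEK 3, and between -2.70 and -1.10 on the other arrays. The slide is therefore confounded with these arrays: vehicle 1 is the only vehicle array on its slide, and IIAEK 3 the only treated array on the other. The part of tissue content, slide or dissection in any difference given here was not tested. In whole duodenum, fewer cells of a type and less RNA per cell cannot be told apart.

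No gene passed the test. Of 26107 features (15583 named genes and 10524 accessions without a gene name), limma called 0 at an adjusted p under 0.05, or 0.0%. The smallest adjusted p by limma was 0.9999. At an unadjusted p under 0.05 stood 499 features, or 1.91%, below the 5% that such a threshold would pass if p-values were spread evenly. Of these, 213 (0.816%) were higher and 286 (1.1%) lower under IIAEK. The 3 treated arrays lay above all 3 vehicle arrays for 516 features (1.98%) and below all 3 for 705 (2.7%). Most differences were small. The median over all features was -0.003, from the 5th to the 95th percentile they ran from -0.37 to 0.41, and 62 features were higher and 99 lower by more than 2-fold. The median SE was 0.243. The count at an unadjusted p under 0.05 depended on single arrays: it was 277 without vehicle 2 and 1239 without IIAEK 3.

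**Figure D1:**
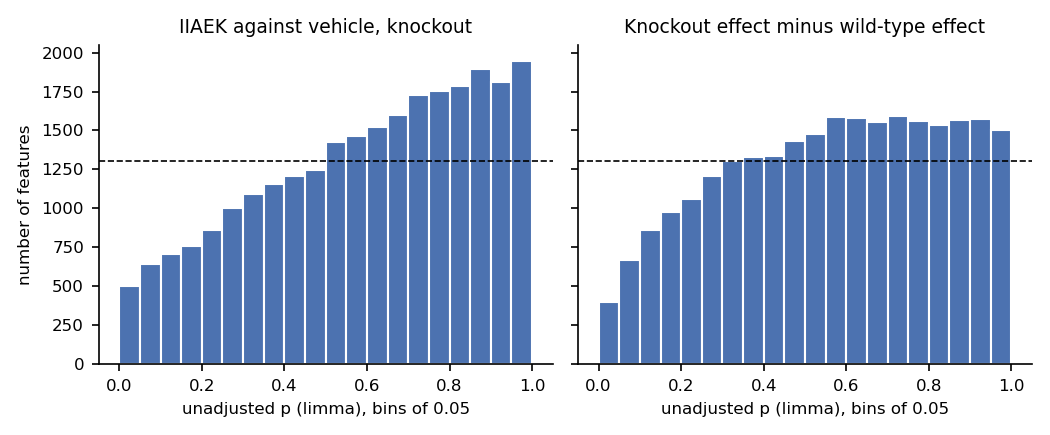
Number of features (y axis) in each bin of unadjusted p (x axis, 20 bins of width 0.05) for IIAEK against vehicle in the knockout (left) and for the difference between the effects in knockout and wild type (right), over 26107 features; the dashed line is an even spread, 1305 features a bin. The lowest bin holds 499 features on the left and 398 on the right, both under the line, and the counts on the left climb to 1948 in the highest bin.

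Chil3 and Chil4 were lower under IIAEK by more than 10-fold with the background correction used here, although neither passed the test. They are neighbouring genes on chromosome 3 for the secreted chitinase-like proteins Ym1 and Ym2, which bind sugars without cleaving chitin and are known from type 2 immune responses. They are recent copies of each other, and the RefSeq stretches before their starts (build GRCm38.p6, minus strand; chr3:106167565-106167714 for Chil3 and chr3:106219508-106219657 for Chil4) are shown because they make plain how alike the loci are. Capitals mark the longest run of bases, 26, that the stretches share.
Chil3: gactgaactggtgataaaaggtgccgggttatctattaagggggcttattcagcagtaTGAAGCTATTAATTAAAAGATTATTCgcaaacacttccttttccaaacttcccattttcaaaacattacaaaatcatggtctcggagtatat
Chil4: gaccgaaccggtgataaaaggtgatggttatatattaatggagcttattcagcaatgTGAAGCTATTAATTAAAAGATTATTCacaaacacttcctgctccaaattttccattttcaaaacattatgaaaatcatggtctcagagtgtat
Of 151 aligned positions, 132 were identical (87.4%). The Chil3 stretch ends on the last base before the annotated start, and the Chil4 stretch is the part aligned with it. Whether the 2 array probes tell the transcripts apart was not tested, so they are not taken as independent readings.

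Chil3 read 1.23, -0.99 and 0.29 on the vehicle arrays and -4.39, -6.65 and -3.35 on the IIAEK arrays. Every treated array lay below every vehicle array by more than 2 log2 units, a difference of -4.97 (SE 1.05, adjusted p = 0.9999 by limma) or 31.4-fold. The probe was well above background on 2 of the 3 treated arrays and not on IIAEK 2, so the size of this difference rests in part on a reading at background. Chil4 read 0.25, -3.21 and -0.26 under vehicle and -6.59, -6.92 and -5.12 under IIAEK. None of the 3 treated readings was well above background, so Chil4 was at least 11.4-fold lower. A probe was kept if all 3 arrays of some group read it well above background. That of Chil4 passed this filter through the knockout vehicle group alone, which sets part of its pattern in advance. For Chil4 the groups did not overlap either, but vehicle 2 lay nearer to the treated arrays than the other vehicle arrays did. The size rests on the background correction: with the normexp correction the differences were -2.41 and -1.66. The bounds given here against background are the mean of the brighter group set against the dimmest signal that still counted as well above background on the arrays of the other group. They hold only for the background correction used here, and the normexp correction gave smaller differences. Some other genes of eosinophils and type 2 responses, picked after their values were seen, had differences near 0. Prg2, the eosinophil major basic protein, had a difference of -0.04, Ear2, an eosinophil ribonuclease, -0.00, Ccl11, the chemokine eotaxin, -0.11, and Retnla, a resistin-like protein of type 2 macrophages, 0.00. Retnlb, the goblet cell resistin-like protein, differed by -1.41 (SE 0.77), although its groups overlap. It read -1.08, -1.98 and -3.67 under vehicle and -2.39, -4.30 and -4.28 under IIAEK, with 2 of the 3 treated arrays well above background. Like that of Chil4, its probe passed the filter through the knockout vehicle group alone. With the normexp correction the Retnlb difference was -0.50. Tpsb2, on the same list, differed by 0.85 (SE 0.51). Over the 18 genes of this list that were measured, 4 were higher and 14 lower, with a median of -0.07, against -0.003 over all features.

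The 15 named genes that were lower with the smallest p, and the 15 that were higher, are described next. They were taken from genes whose groups do not overlap, which fixes their direction on all arrays and on both slides, and their adjusted p-values were all 0.9999. Casp4 encodes the inflammatory caspase that senses lipopolysaccharide in the cytosol. It read 3.56, 3.92 and 4.11 under vehicle and 3.21, 2.88 and 2.07 under IIAEK, lower by 2.21-fold (difference -1.15, SE 0.28). The lowest array was IIAEK 3, and without it the difference was -0.82. Gpx2, the glutathione peroxidase of the gut epithelium, read 6.0, 6.66 and 5.70 under vehicle and 5.18, 4.79 and 5.47 under IIAEK. Its difference was -0.97 (SE 0.28), with IIAEK 3 the highest of the treated arrays. Gpx2-ps1, a pseudogene derived from it, had a difference of -1.10 (SE 0.30). The probes of Gpx2 and its pseudogene may read the same transcript, which was not tested.

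Stk25, a Ste20-type kinase, read 4.0, 4.32 and 4.24 under vehicle and 2.97, 2.66 and 3.98 under IIAEK. IIAEK 1 and 2 were lower by more than 1 log2 unit than any vehicle array, whereas IIAEK 3 lay only just below vehicle 1. The difference was -0.98 (SE 0.27), and a second Stk25 probe gave -1.32. Lars, the leucyl-tRNA synthetase of the cytosol, was lower by less, at -0.52 (SE 0.14), with -0.63 on its second probe. Apex1, the endonuclease that opens abasic sites in DNA repair, read 2.45, 2.42 and 2.54 under vehicle and 2.16, 2.01 and 2.09 under IIAEK. This was the tightest of the lower genes, with a difference of -0.39 (SE 0.11) on the probe used and of -0.31 and -0.48 on its other probes. Ceacam2, an adhesion molecule close in sequence to Ceacam1, had a difference of -0.70 (SE 0.19), and Rrp15, a factor of ribosomal RNA processing, of -0.48 (SE 0.14).

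Several of the lower genes lay near background. Adam24, a metalloprotease gene known from testis, was at least 1.91-fold lower. Pdgfd, a ligand of the PDGF receptor beta, was at least 1.59-fold lower and the predicted gene Gm20735 at least 1.88-fold. With the normexp correction their differences were only -0.21, -0.12 and -0.14. Each was well above background on the 3 vehicle arrays and on none of the treated arrays. Like Chil4, they passed the filter through the knockout vehicle group alone, which sets part of this pattern in advance. Cxcl1, a neutrophil-attracting chemokine outside these 15, was likewise well above background on the 3 vehicle arrays and on none of the treated arrays. It was at least 2.95-fold lower, with a difference of -0.53 under the normexp correction. Vehicle 2 alone, at -0.98, carried most of its vehicle mean, the others reading -4.35 and -3.74. Rnf183, a membrane ubiquitin ligase, had a difference of -1.08 (SE 0.29), and BC018473, well above background on 2 of the 3 treated arrays, of -1.27 (SE 0.32). With the normexp correction these differences were only -0.29 and -0.22. The probe of BC018473 also passed the filter through the knockout vehicle group alone, which sets part of its pattern in advance.

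**Figure D2:**
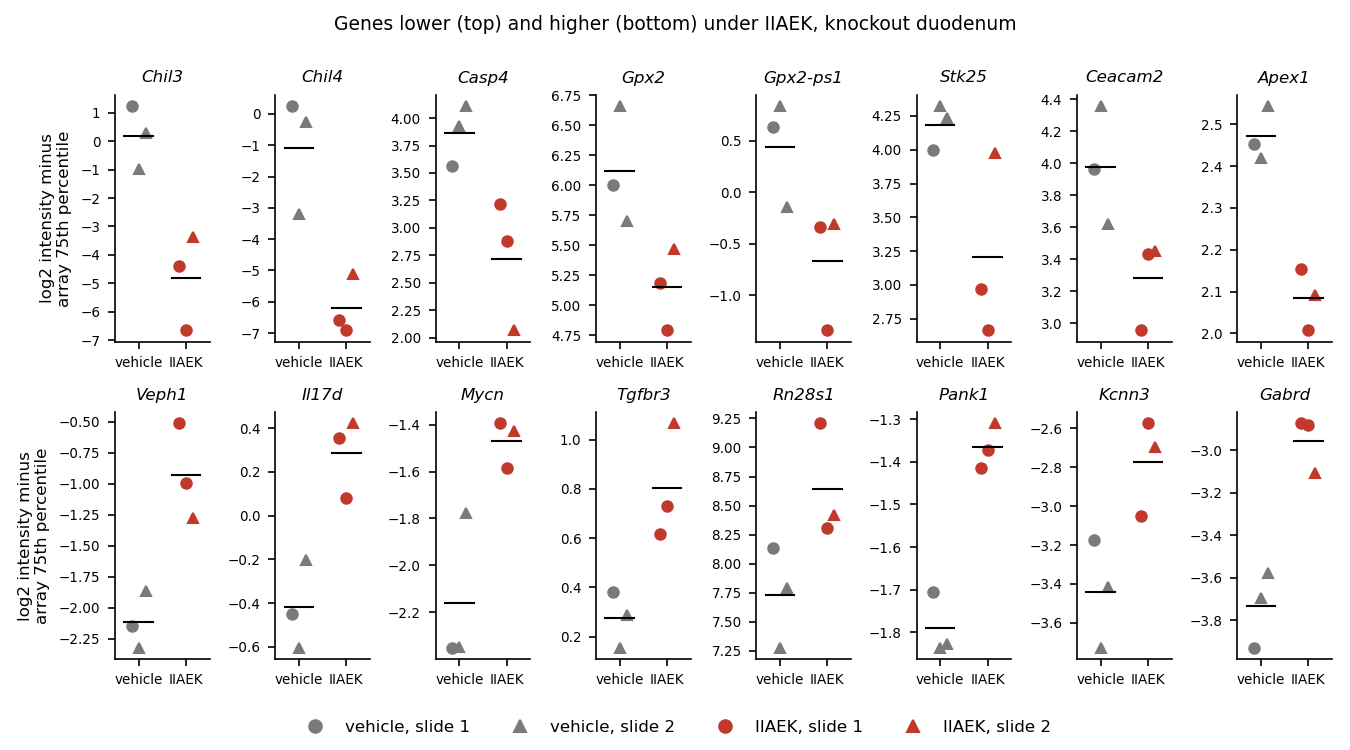
Level of 16 of the 30 named genes (y axis, log2 intensity minus the array's 75th percentile; each panel has its own scale) on the 3 vehicle and 3 IIAEK arrays of the knockout (x axis); circles are slide 1, triangles slide 2 and lines group means. The groups separate in every panel because the genes were chosen so; Chil3 and Chil4 span over 7 log2 units, Apex1 under 1, and Stk25 on IIAEK 3 sits beside the vehicle arrays.

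Among the higher genes, Veph1, which encodes a membrane-bound protein with a pleckstrin homology domain, read -2.15, -2.32 and -1.87 under vehicle and -0.51, -1.0 and -1.28 under IIAEK. It was higher by 2.27-fold, a difference of 1.18 (SE 0.28). Il17d, a cytokine of the interleukin 17 family, read -0.45, -0.60 and -0.20 under vehicle and 0.36, 0.08 and 0.42 under IIAEK, a difference of 0.71 (SE 0.21). Mycn, a MYC-family transcription factor, read -2.35, -2.35 and -1.78 under vehicle and -1.40, -1.58 and -1.43 under IIAEK, and differed by 0.69 (SE 0.21). For all 3 genes, vehicle 3 was the vehicle array nearest to the treated arrays. Tgfbr3, the co-receptor betaglycan of the TGF-beta family, differed by 0.53 (SE 0.16), with IIAEK 3 the highest array at 1.07 and the others at 0.62 and 0.73. Pank1, a pantothenate kinase at the entry to coenzyme A synthesis, was tighter, with -1.71, -1.84 and -1.83 under vehicle and -1.42, -1.37 and -1.31 under IIAEK, a difference of 0.42 (SE 0.13).

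Rn28s1, the 28S ribosomal RNA, is not a protein-coding message. It read 8.13, 7.28 and 7.79 under vehicle and 9.21, 8.31 and 8.42 under IIAEK, a difference of 0.91 (SE 0.28), with IIAEK 1 alone above 9. Of the other higher genes, Kcnn3, a small-conductance potassium channel, differed by 0.67 (SE 0.22), Gabrd, the delta subunit of a GABA receptor, by 0.78 (SE 0.27), and Npcd by 0.53 (SE 0.18). Unc80, a subunit of the NALCN sodium leak channel, was at least 1.43-fold higher, Scrg1 at least 1.79-fold and the olfactory receptor gene Olfr124 at least 1.76-fold. With the normexp correction their differences were only 0.33, 0.30 and 0.22. Each was well above background on the 3 treated arrays and on no vehicle array of the knockout. Their probes passed the filter through the treated knockout group alone, which sets part of this pattern in advance. Astn2, well above background on 1 of the 3 vehicle arrays, differed by 0.90 (SE 0.28), the unstudied gene 1700030A11Rik by 0.64 (SE 0.21) and Gm12992 by 0.59 (SE 0.20), with 0.24 on a second probe of Gm12992. With the normexp correction 18 of the 30 differences shrank by more than 1.5 times. Among the 12 that did not were Casp4, Gpx2, Stk25, Lars, Apex1, Ceacam2, Rn28s1 and Tgfbr3.

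The effects on the 2 slides differed. Fitted within a slide, the treatment effects correlated at -0.466 across the 26107 features, as a description of features that share arrays, and had the same sign for 35.7% of them. Each of these fits sets 1 knockout array against 2, with 3 and 1 residual degrees of freedom, and is given as a description. Genes of the gastric surface and its glands show the pattern. Gkn2, the gastric peptide gastrokine 2, read 7.36, -5.38 and -5.20 under vehicle and -6.40, -5.25 and 7.81 under IIAEK, well above background on vehicle 1 and IIAEK 3 only. Tff1, the trefoil peptide of gastric surface cells, read 7.22, 0.53 and -0.37 under vehicle and -0.45, -0.67 and 8.48 under IIAEK, a difference of -7.78 on slide 1 and of 8.4 on slide 2. For both genes vehicle 1 and IIAEK 3 were the high arrays, and over all 6 arrays Tff1 differed by -0.01.

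Of 47 lists of genes for the functions and cell types of the duodenum, medians ran from -0.29 to 0.25, 19 above 0 and 28 below, and 29 of them lay within 0.1 of 0. The lists hold 881 measured genes, of which 1 was higher and 14 lower at an unadjusted p under 0.05 (0.114% and 1.59%), against 0.816% and 1.1% of all features. None passed the adjusted test. Many of the values below moved when IIAEK 3 was left out. Of 177 list members named by rule, 100 differed by over 1.5 times between the fits with and without that array, and 18 of these changed sign. The same count was not made for the other arrays. Differences of some dim members given below were smaller with the normexp correction. They were -0.09 for Cry1, -0.23 for Fabp6, -0.23 for Cdc45, 0.28 for Neurog3 and -0.25 for Cldn4. These genes are examples, and list members that shrank or held under that correction were not counted. The medians within the 2 slides had opposite signs for 39 of the 47 lists.

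**Figure D3:**
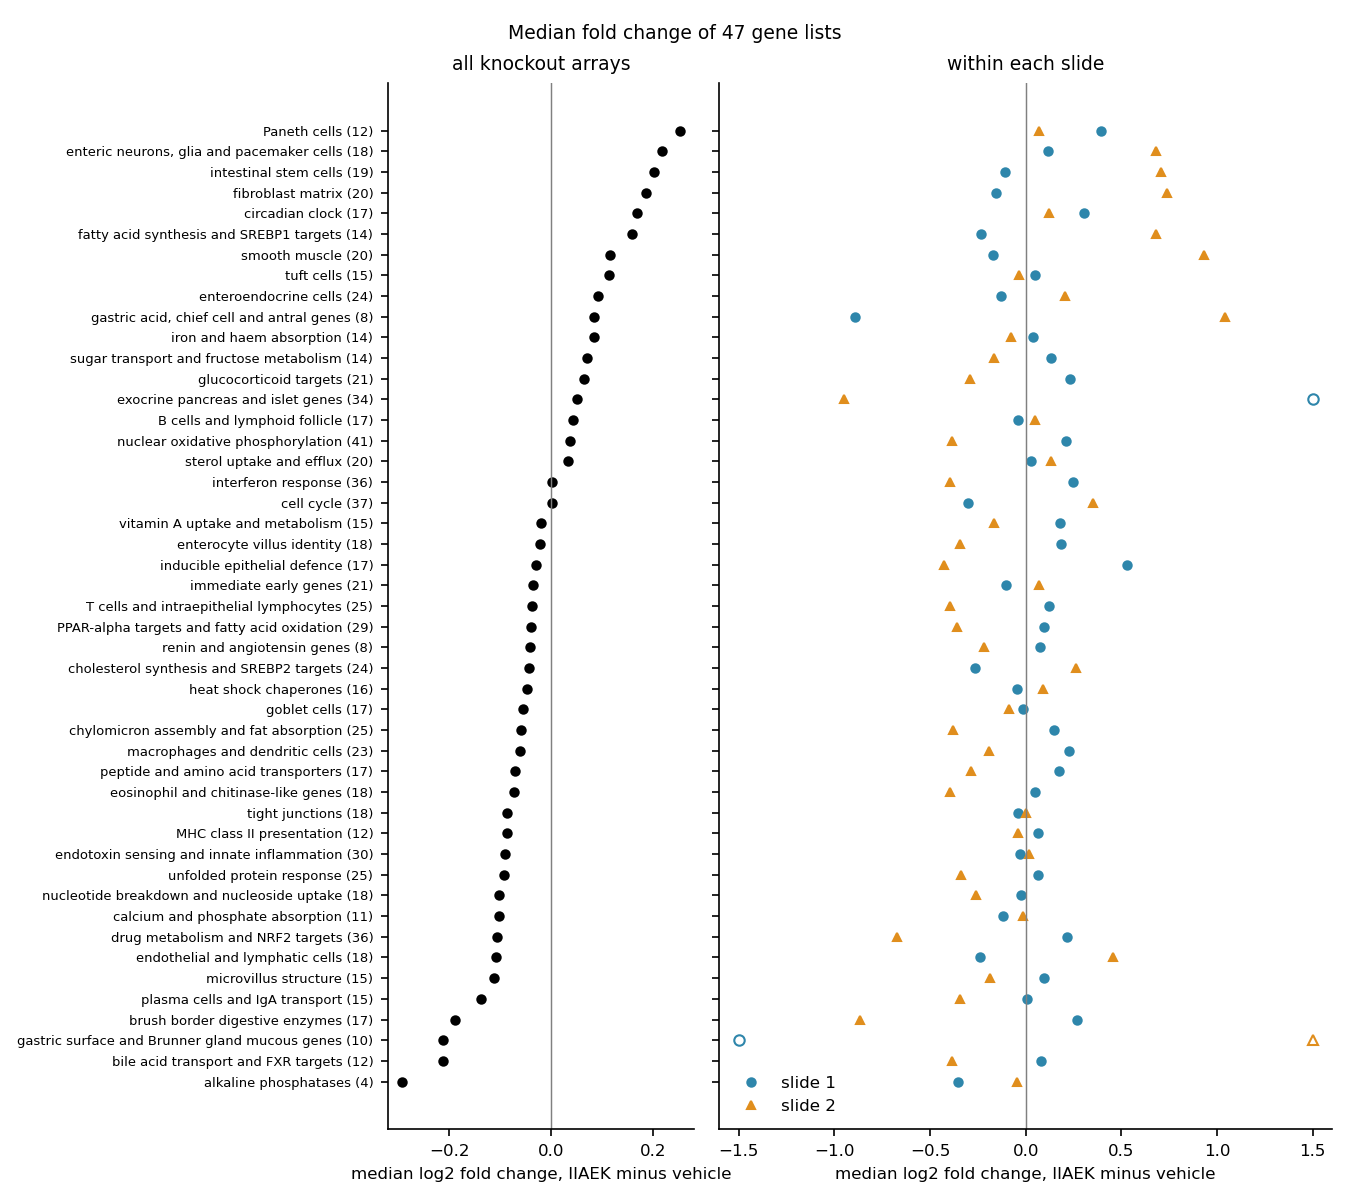
Median log2 difference, IIAEK minus vehicle (x axis), of 47 gene lists (y axis, number of genes measured in brackets) over all 6 knockout arrays (left) and within each slide (right; circles slide 1, triangles slide 2). Open symbols at the edge stand for values beyond the axis: -5.80 and 6.17 for the gastric mucous list and 1.53 for the pancreas list on slide 1. The slides fall on opposite sides of 0 for 39 lists.

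The alkaline phosphatases that the knockout keeps did not differ beyond their spread. Alpi, a further intestinal form of the enzyme, bright on all 6 arrays, read 6.54, 6.59 and 6.58 under vehicle and 6.11, 6.41 and 6.74 under IIAEK. The groups overlap, and the difference was -0.15 (SE 0.26, 95% interval -0.73 to 0.43). Alppl2, an embryonic-type form, differed by -0.25 (interval -1.24 to 0.74) and Alpl, the tissue-nonspecific form, by -0.34 (interval -0.89 to 0.21). Akp3 had a nominal difference of -0.64, but its probe was well above background on 2 vehicle arrays and 1 treated array, and a second probe gave -0.02. With Akp3 included, 0 of the 4 genes were higher and 4 lower. Their median of -0.29 was the lowest of the 47 lists.

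The sterol transport genes named for this comparison had differences near 0. Npc1l1, the brush border importer of cholesterol, read 3.82, 3.91 and 4.02 under vehicle and 3.68, 4.03 and 4.12 under IIAEK, a difference of 0.03 (interval -0.31 to 0.37). Abcg5 and Abcg8, which together pump sterols back into the lumen, differed by -0.07 (interval -0.54 to 0.40) and 0.13 (interval -0.38 to 0.63). Abca1, which loads high-density lipoprotein, differed by 0.11 (interval -0.42 to 0.64). The intervals of these 4 genes bound a difference only to within -0.54 to 0.64. Over the 20 sterol uptake and efflux genes, 12 were higher and 8 lower, with a median of 0.03. The member with the smallest p was Anxa2, a membrane-binding annexin, at -0.36 (SE 0.15), 7.47, 7.58 and 7.36 under vehicle against 7.16, 7.26 and 6.92 under IIAEK without overlap. The 24 genes of cholesterol synthesis and SREBP2, the factor that switches it on, had a median of -0.04, with -0.27 on slide 1 and 0.26 on slide 2. Cyp51, the lanosterol demethylase, differed by -0.32 (SE 0.27).

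Lipid genes showed small differences that turned with the slide. The 14 measured genes of fatty acid synthesis and SREBP1 had 11 higher and 3 lower and a median of 0.16, but -0.23 on slide 1 against 0.68 on slide 2, and -0.09 without IIAEK 3. Srebf1, the gene of that factor, read 3.64, 3.35 and 3.81 under vehicle and 3.59, 3.81 and 4.26 under IIAEK. IIAEK 3 was the highest and the others lay within the vehicle range. Of 25 genes of chylomicron assembly and fat absorption, 4 were higher and 21 lower, with a median of -0.06. Agpat2, an acyltransferase of phosphatidic acid synthesis, had the smallest p of these, at -0.32 (SE 0.15). Mttp, which loads lipid on apolipoprotein B, read 5.68, 5.86 and 5.62 under vehicle and 5.50, 5.74 and 4.93 under IIAEK, so its difference of -0.33 rests on IIAEK 3. Without that array the list's median was 0.05. The 29 genes of PPAR-alpha and fatty acid oxidation had a median of -0.04 and 0.03 without IIAEK 3.

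Nr1h4, which encodes the bile acid receptor FXR, read 4.02, 4.03 and 3.98 under vehicle and 3.91, 3.64 and 2.96 under IIAEK. The vehicle arrays were nearly alike and the treated arrays spread downward, a difference of -0.51 (SE 0.21), or -0.24 without IIAEK 3. Its target Fabp6, the ileal bile acid binding protein, differed by -0.89 (SE 0.55) and Slc51b, a subunit of the basolateral bile acid exporter, by -0.70 (SE 0.52), both with IIAEK 3 lowest, at -4.22 and 1.82; Fabp6 was well above background on 2 of the 3 treated arrays. Of 12 measured genes of bile acid transport and FXR, 2 were higher and 10 lower, with a median of -0.21 over all arrays and -0.15 without IIAEK 3. On slide 1 alone that median was 0.08.

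Among transporters, Slc15a1, the PEPT1 importer of di- and tripeptides, read -0.65, -1.32 and -1.86 under vehicle and 0.39, 0.23 and -1.97 under IIAEK. IIAEK 1 and 2 were the highest arrays and IIAEK 3 the lowest of the 6, so the difference of 0.83 (SE 0.59, interval -0.48 to 2.14) became 1.59 without IIAEK 3. Slc9a3, the sodium-proton exchanger NHE3 that supplies the proton gradient for peptide uptake, read 4.14, 4.24 and 4.27 under vehicle and 3.64, 3.62 and 3.51 under IIAEK. All 3 treated arrays agreed on it, with a difference of -0.63 (SE 0.24) and -0.51 and -0.74 on the slides. Of 17 peptide and amino acid transporter genes, 5 were higher and 12 lower, with a median of -0.07. Slc7a9 and Slc3a1, the light and heavy chains of the cystine transporter, differed by -0.31 (SE 0.17) and -0.41 (SE 0.28). Sugar transport and fructose metabolism (14 genes) had a median of 0.07, iron and haem absorption (14 genes) 0.08, calcium and phosphate absorption (11 genes) -0.10 and vitamin A (15 genes) -0.02. Trpv6, the apical calcium channel, ranged widely, at 2.62, 0.98 and 0.80 under vehicle and 0.76, -0.71 and 2.02 under IIAEK, with vehicle 1 and IIAEK 3 high again.

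Brush border digestive enzymes had a median of -0.19, with 3 of 17 genes higher and 14 lower, but this followed IIAEK 3. Mep1b, the meprin beta protease, read 3.91, 4.97 and 4.45 under vehicle and 4.28, 4.05 and 2.97 under IIAEK. Sis, the sucrase-isomaltase, read 8.6, 8.85 and 8.90 under vehicle and 9.40, 9.07 and 8.00 under IIAEK, so that the treated arrays held both the highest and the lowest values. Without IIAEK 3 the list's median was 0.11. Microvillus structure genes (15) had a median of -0.11, and tight junction genes (18) of -0.09 with 4 higher and 14 lower. Tjp1, the junction scaffold ZO-1, differed by 0.26 (SE 0.16) and Cldn4, a claudin, by -0.60 (SE 0.59).

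Ada, the adenosine deaminase that is abundant in the duodenal villus, read 7.09, 7.72 and 7.42 under vehicle and 6.89, 6.62 and 6.12 under IIAEK. The groups did not overlap, and the difference was -0.87 (SE 0.32), or -0.66 without IIAEK 3. For Slc28a2, a concentrating purine nucleoside transporter, the groups overlap, and the difference of -0.73 (SE 0.38) became -0.38 without IIAEK 3. Pnp, the purine nucleoside phosphorylase, also overlapped, at -0.29 (SE 0.22), or -0.07 without IIAEK 3 and 0.13 on slide 1. Of these 18 genes 4 were higher and 14 lower, with a median of -0.10 both with and without IIAEK 3. Enterocyte villus genes as a whole had a median of -0.02 over 18 genes. Gata6, a transcription factor of the proximal gut, differed by 0.26 (SE 0.13) with all treated arrays above the vehicle arrays.

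Drug metabolism and NRF2 genes had 9 of 36 members higher and 27 lower, and a median of -0.11. Akr1b8, an aldo-keto reductase, was the member with the smallest p and read 3.68, 5.0 and 3.81 under vehicle and 2.70, 2.73 and 3.37 under IIAEK. It was lower by 2.34-fold (difference -1.23, SE 0.39) without overlap, by -0.96 on slide 1 and -1.03 on slide 2. Srxn1, a sulfiredoxin, differed by -0.40 (SE 0.22) and the carboxylesterases Ces2a and Ces1f by -0.43 (SE 0.29) and -0.70 (SE 0.47), with IIAEK 3 the lowest array for all 3 genes. Without that array the list's median was 0.16. The 41 nuclear genes of oxidative phosphorylation had 30 higher and 11 lower, at a median of 0.04, and a range of -0.28 to 0.22.

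Stress programmes had medians near 0. Heat shock chaperones (16 genes) had a median of -0.05, immediate early genes (21) -0.04 and the unfolded protein response (25 genes, 7 higher and 18 lower) -0.09. Chac1, a glutathione-degrading enzyme induced by that response, read -0.52, 0.25 and -0.47 under vehicle and -0.75, -1.57 and -1.42 under IIAEK, a difference of -1.0 (SE 0.47). Pdia6, a protein disulfide isomerase, differed by -0.34 (SE 0.16) and Hspa5, the chaperone BiP, by -0.25 (SE 0.15). Glucocorticoid targets (21 genes) had a median of 0.06, and 0.21 without IIAEK 3. Tsc22d3 and Ddit4, both induced by glucocorticoids and by fasting, read 3.86 and 3.28 on IIAEK 1, 3.75 and 3.39 on IIAEK 2, but 3.15 and 2.66 on IIAEK 3, within the vehicle ranges of 3.02 to 3.49 and 2.21 to 3.15. The circadian clock list (17 genes) had a median of 0.17, with Hlf, a rhythmic transcription factor, at 0.75 (SE 0.39) and Cry1, a repressor of the clock, at -0.49 (SE 0.37). The time of day of collection is not given in the labels.

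Innate sensing genes had a median of -0.09 over 30 measured members, 12 higher and 18 lower, and 3 of them had an unadjusted p under 0.05, all lower: Casp4, Cxcl1 and Cd14. Of all features, 1.1% were lower at that threshold, and Cxcl1 was at background on the treated arrays and high on vehicle 2 alone. Cd14, the co-receptor that hands lipopolysaccharide to Toll-like receptor 4, read 0.39, 0.89 and 0.58 under vehicle and -0.15, -0.58 and 0.34 under IIAEK. The nearest arrays of the groups, vehicle 1 and IIAEK 3, almost met, and the difference was -0.75 (SE 0.28). Ccl20, an epithelial chemokine, differed by -0.92 (SE 0.52) with IIAEK 3 lowest. The antimicrobial lectin Reg3g read 5.68, 8.97 and 6.88 under vehicle and 6.89, 6.07 and 5.32 under IIAEK, where vehicle 2 alone was high. Inducible epithelial defence as a list had a median of -0.03. Interferon-induced genes (36) split into 18 higher and 18 lower at a median of 0.00, with 0.25 on slide 1 and -0.39 on slide 2. Ifit3, an interferon-induced antiviral gene, read 1.2, 0.96 and 1.26 under vehicle and 1.88, 1.92 and 0.82 under IIAEK.

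Medians of lymphoid and myeloid markers lay close to 0. They were -0.04 for T cells and intraepithelial lymphocytes (25 genes), 0.04 for B cells (17), -0.14 for plasma cells and IgA transport (15), -0.09 for MHC class II presentation (12) and -0.06 for macrophages and dendritic cells (23). Gzma, a granzyme of intraepithelial lymphocytes, read 7.02, 6.88 and 6.81 under vehicle and 7.52, 6.96 and 5.47 under IIAEK. Tnfsf13b, the B-cell survival factor BAFF, read -1.15, -0.72 and -1.11 under vehicle and -1.78, -1.38 and -1.25 under IIAEK, lower on every treated array by a difference of -0.48 (SE 0.19). Jchain, the joining chain of secreted IgA, differed by -0.01, and H2-Aa, an MHC class II chain, by -0.47 (SE 0.24) with vehicle 2 the highest array at 4.52. Itgam, the integrin CD11b, differed by -0.32 (SE 0.18).

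Epithelial lineages also had small medians. The highest of all list medians was that of Paneth cells, 0.25 over 12 genes, 8 of them higher. Defa23, an alpha-defensin, read 10.31, 10.02 and 10.81 under vehicle and 10.92, 10.57 and 10.53 under IIAEK, a difference of 0.29 (SE 0.25), and Lyz1, the Paneth cell lysozyme, differed by 0.28 (SE 0.26). Alpha-defensins are near-identical copies, so their probes may read each other's transcripts. Within the slides the Paneth median was 0.39 and 0.07, the same sign on both. With quantile normalization between arrays it was 0.12, below the 0.23 of intestinal stem cell genes, so its rank depends on the scaling. Intestinal stem cell genes had 15 of 19 members higher and a median of 0.20, but 0.02 without IIAEK 3. Lgr5, the receptor that marks crypt base stem cells, read -0.69, -0.54 and -0.94 under vehicle and -0.55, -0.45 and -0.03 under IIAEK. Ephb3, a crypt receptor that keeps Paneth cells at the base, differed by 0.33 (SE 0.15) with all treated arrays above the vehicle arrays. Goblet cell genes (17) had a median of -0.06, tuft cell genes (15) 0.11 and enteroendocrine genes (24) 0.09. Muc2, the main intestinal mucin, differed by 0.22 (SE 0.19), Trpm5, the cation channel of tuft cells, by -0.64 (SE 0.33), and Neurog3, the switch to the endocrine lineage, by 0.72 (SE 0.36). Neurog3 was well above background on 2 of the 3 vehicle arrays, and its difference became 0.31 without IIAEK 3 and -0.23 on slide 1.

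The 37 cell cycle genes measured split into 19 higher and 18 lower, with a median of 0.00. Rrm1, the large subunit of ribonucleotide reductase, read 1.96, 2.0 and 1.65 under vehicle and 1.35, 1.41 and 1.66 under IIAEK. Vehicle 3 and IIAEK 3 were equal to within 0.02, and the difference was -0.40 (SE 0.15). Cdc45, a part of the replicative helicase that was well above background on 2 of the 3 treated arrays, differed by -0.86 (SE 0.38) and Top2a, the topoisomerase of dividing cells, by -0.45 (SE 0.23). On slide 1 the list's median was -0.30, on slide 2 it was 0.35, and without IIAEK 3 it was -0.20.

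Markers of the muscle wall and of neighbouring organs varied widely between arrays. Acta2, the smooth muscle actin, read 4.91, 5.34 and 5.49 under vehicle and 4.27, 5.07 and 6.82 under IIAEK, which spans both the lowest and the highest array. The smooth muscle list (20 genes) had a median of 0.11, and -0.30 without IIAEK 3. Fibroblast matrix (20 genes) had 0.19, and -0.06 without that array, and enteric neurons, glia and pacemaker cells (18 genes) 0.22 and -0.00. Elavl4, a neuronal RNA-binding protein, was the 1 list member higher at an unadjusted p under 0.05, at -0.83, -1.65 and -1.10 under vehicle and -0.63, -0.68 and -0.88 under IIAEK, although IIAEK 3 lay below vehicle 1. Snap25, a protein of synaptic vesicle release on the same list, differed by -0.35 (SE 0.20). Emcn, an endothelial sialomucin, differed by -0.38 (SE 0.16), while the endothelial list (18 genes) had a median of -0.11.

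Pancreatic RNA was present on all 6 arrays, with Cela2a, a pancreatic elastase, at 10.06 to 11.01. The mean of 34 genes of the exocrine pancreas and islets was 6.21, 8.34 and 8.12 under vehicle and 8.06, 7.56 and 7.18 under IIAEK, vehicle 1 being the lowest. Prss1, a trypsinogen, ranged from 1.66 on vehicle 1 to 8.27 on vehicle 2. Tff2, the trefoil peptide of Brunner's glands and of the gastric neck, read 9.65, 7.91 and 6.49 under vehicle and 6.06, 5.55 and 10.10 under IIAEK, so the arrays with the most mucous gland RNA lie 1 in each group. Adding the means of the gastric mucous and pancreas lists as covariates called 0 features as well.

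**Figure D4:**
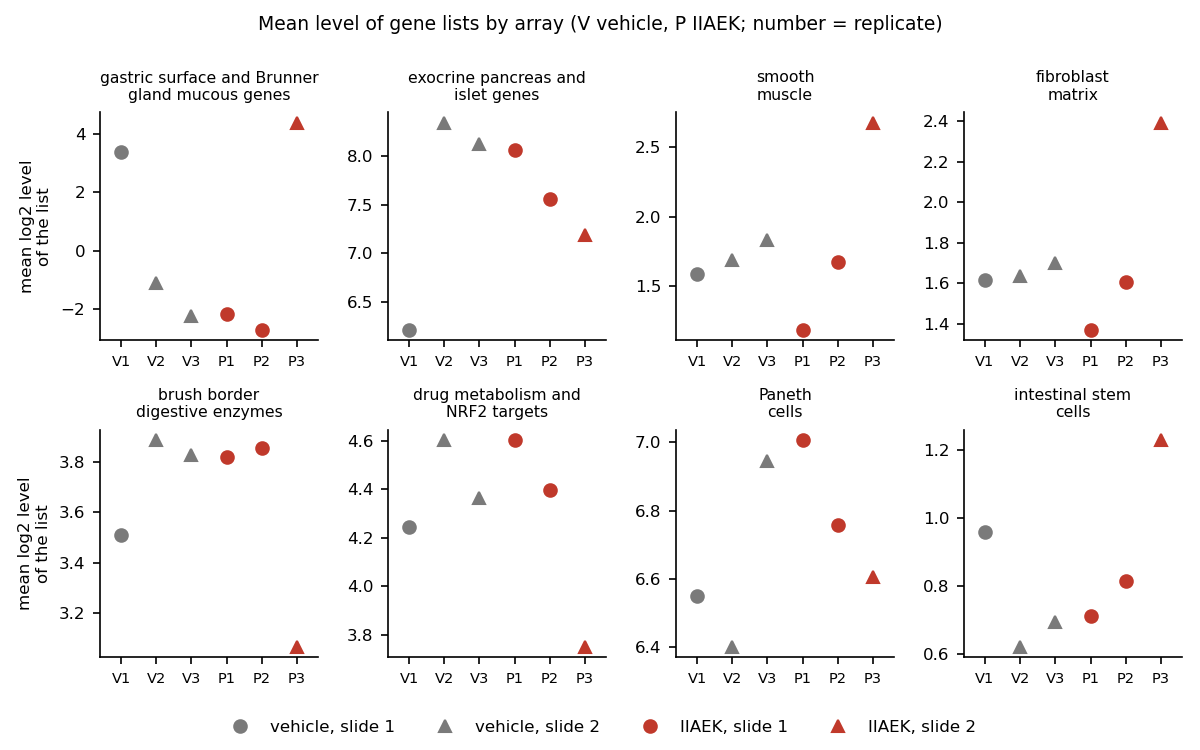
Mean level of 8 gene lists (y axis, mean of log2 levels over the list's measured genes; each panel has its own scale) on each knockout array (x axis; V1 to V3 vehicle, P1 to P3 IIAEK), with circles for slide 1 and triangles for slide 2. V1 and P3 stand out for gastric and Brunner gland genes, V1 is lowest for pancreas, and P3 is highest for smooth muscle and matrix and lowest for brush border enzymes and drug metabolism.

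The effect in the knockout was then set against that in wild type, where no arrays are shared. The difference between the effects was called for 0 features (0.0%) by limma at an adjusted p under 0.05, and 398 (1.52%) had an unadjusted p under 0.05, of which 154 were more positive in the knockout and 244 more negative. Across features the effects in the 2 genotypes correlated at 0.0835, given as a description. The median SE of this difference, 0.344, was larger than that of either effect alone. Of the 30 genes above, 20 had the same sign in wild type (8 of the 15 higher, 12 of the 15 lower), and the smallest adjusted p of their difference between genotypes was 1.0.

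Chil4 differed by -0.11 in wild type, where it read -3.99, -6.73 and -5.02 under vehicle and -6.94, -6.80 and -2.33 under IIAEK. Chil3 differed by -1.30 in wild type. For both genes several readings lay at background, so no interval of the difference between genotypes is given. The genotypes also started from unlike levels, with a vehicle mean for Chil3 of 0.18 in the knockout and -2.75 in wild type. Casp4 differed by 0.38 in wild type, on arrays that read 3.17, 2.66 and 2.50 under vehicle and 3.30, 3.27 and 2.91 under IIAEK, and the difference between genotypes was -1.53 (95% interval -2.41 to -0.64). Its vehicle means were unlike as well, 3.86 in the knockout and 2.78 in wild type. Gpx2 was lower in wild type too, at -0.69, and the interval of the difference, -1.17 to 0.60, includes 0. Pank1 showed close values, 0.47 in wild type and 0.42 in the knockout, with an interval of -0.46 to 0.38. Rn28s1 differed by -0.29 in wild type, with an interval of 0.33 to 2.07 for the difference between genotypes and vehicle means of 7.73 in the knockout and 8.75 in wild type. None of these passed after adjustment over all features, and these genes were picked for their values in the knockout.

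**Figure D5:**
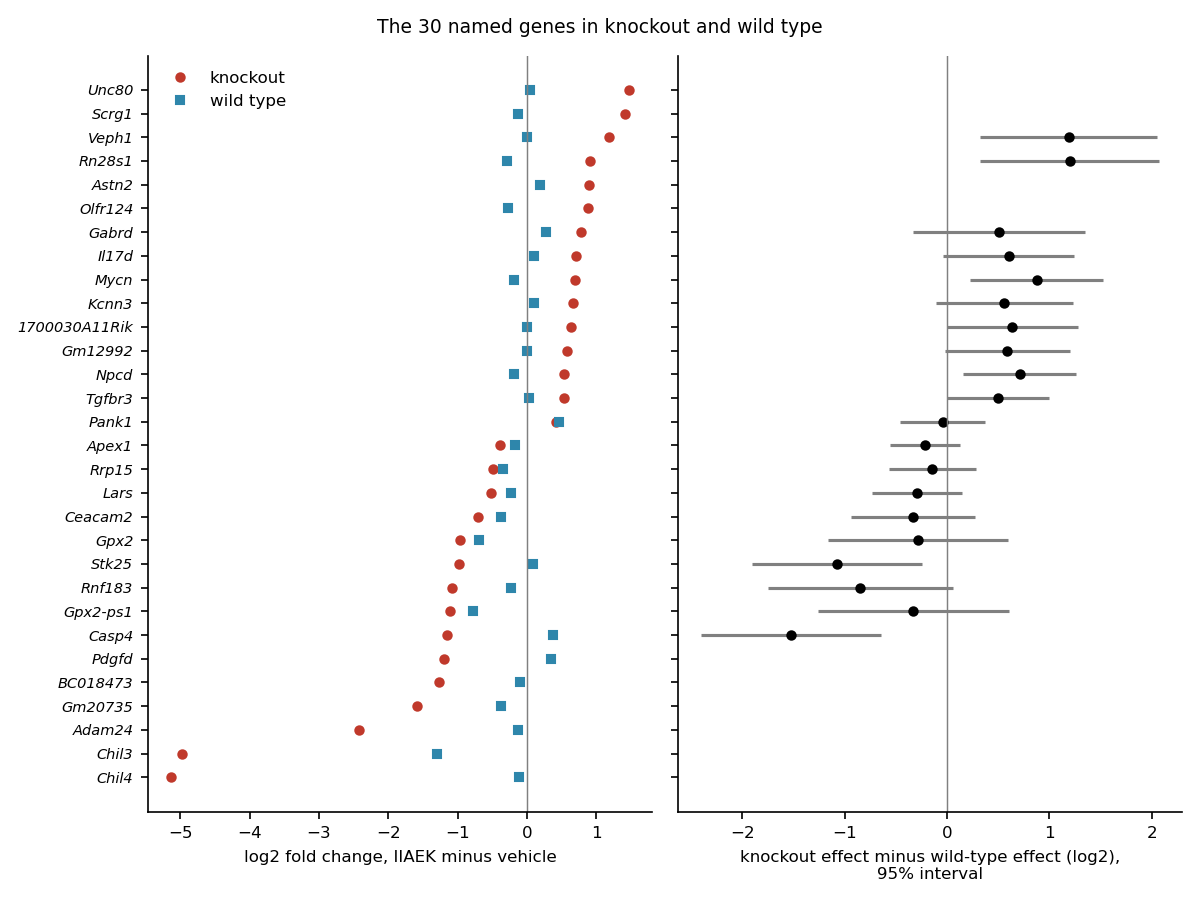
Left, log2 difference IIAEK minus vehicle (x axis) in the knockout (circles) and in wild type (squares) for the 30 named genes (y axis); right, the knockout effect minus the wild-type effect with its 95% interval from limma, drawn for the 20 genes that were well above background on all 12 arrays. Genes were chosen by their knockout values; 14 of the 20 intervals include 0, those of Pank1, Apex1, Rrp15 and Gpx2 among them.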

How the data were processed

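The deposited scanner files come from Feature Extraction 10.7.3.1, per the file headers, and give each spot a processed intensity that is background-subtracted but not scaled between arrays. The authors' deposited value table holds log2 values; it matched the log2 processed intensity minus the 75th percentile, centred per probe, at a correlation of at least 0.999996 on every array. Its medians on the knockout arrays lay between -0.09 and 0.12.

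Control spots (3671 of 62976) and outlier-flagged spots were left out, spots were averaged per probe, and the 75th percentile was subtracted. Accessions matched to RefSeq (GRCm38.p6) named 32978 of 56583 probes; the headers name mm9, and coordinates are printed only for the RefSeq promoter stretches, in GRCm38.p6. A probe was kept if all 3 arrays of some group read it well above background (32925 probes), the brightest standing for a gene or unnamed accession. limma 3.58.1 in R 4.3.3 fitted 1 mean per group over 12 arrays (lmFit, eBayes with trend, two-sided), with Benjamini-Hochberg adjustment over 26107 features. The procedure was tested on simulated data.

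Named were the alkaline phosphatases, 5 sterol and peptide transport genes, the 15 higher and 15 lower genes with the smallest p among those whose groups do not overlap, and up to 4 members of each list with the smallest p, plus bright members of cell type lists. Prg2, Ear2, Ccl11, Retnla and Sis, and the gastric genes given by slide, were picked after their values were seen. Members and lists were chosen with earlier results of these data known. The alternatives were other background, scaling, filters, probes, fits, blocks, covariates, values and left-out arrays. The normexp alternative used the median signal, since the files hold no mean signal.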

Additional observations from a re-analysis of the deposited data

How the results depend on the processing

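The count of 0 called features in the knockout held under all alternatives other than fits within a slide, which set 1 knockout array against 2 and called 58 on slide 1 and 255 on slide 2. The count at an unadjusted p under 0.05, 499 as reported, was 294 with normexp background, 841 with no filter on dim probes, 290 on the knockout arrays alone, 881 with the smooth muscle mean as covariate, 1226 with a slide term, 1563 on slide 1 and 5941 on slide 2. Leaving out single arrays gave 277 (without vehicle 2) to 1239 (without IIAEK 3). For the difference between genotypes, 35 features were called on slide 2, and 0 to 1 when single arrays were left out, the 1 being without wild-type vehicle 3. The replicate block called 0 features and put 704 at an unadjusted p under 0.05. Same-numbered samples had correlations of deviations of 0.046, -0.25 and -0.22. Slide and tissue content also differ between these arrays, so the values cannot show whether equal numbers mark paired samples.

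Signs turned for genes near 0. Alpi became 0.013 with the slide term and 0.16 on slide 2, and Alppl2 became 0.026 and 0.30. Npc1l1 became -0.011 with the smooth muscle covariate, Abcg8 -0.13 on slide 1, Abca1 -0.32 on slide 2 and Slc15a1 -0.38 on slide 2. With single arrays left out, Alpi ran from -0.31 to 0.0036, Npc1l1 from -0.059 to 0.16, Abcg5 from -0.18 to 0.087 and Abca1 from -0.072 to 0.30. The cause was not tested. Of 177 list members named, 91 changed sign under at least 1 of 25 alternatives. List medians moved beyond the spread between replicates in 63 of 1175 cases, 53 of them within slides. The number of arrays limits precision.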
